A study of Mus musculus with 16 samples.

Results

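The transcripts described here are 10 genes of prostaglandin synthesis and sensing in resting group 2 innate lymphoid cells (ILC2) of the mouse duodenum: the cyclooxygenases Ptgs1 and Ptgs2, the synthases Ptges3 and Hpgds, the inactivating enzyme Hpgd, and the receptors Ptger2, Ptger4, Ptgir, Ptgdr and Ptgdr2. They were chosen by symbol, with earlier results of these libraries known, and all 10 were found among the 53465 genes of the count table. ILC2 are tissue-resident lymphocytes that make type 2 cytokines such as IL-13. RNA came from ILC2 sorted out of the first 5 cm of the small intestine of untreated C57BL/6 mice aged 6 to 10 weeks, in 4 genotypes of 4 libraries each. The groups were Alox5 KO (Alox5 -/-, no functional 5-lipoxygenase for leukotriene synthesis), Il25 KO (Il25 -/-, no IL-25), St2 KO (St2 -/-, no ST2, the receptor of IL-33 encoded by Il1rl1) and WT. All 4 groups, WT included, carried the Il13 smart13/smart13 reporter. The Arg1 Yarg/Yarg reporter was present in Il25 KO and in St2 KO mice and absent from Alox5 KO and WT mice. The labels describe germline alleles, so the gene was missing from other cells of the mouse as well as from ILC2, and they leave unsaid if every library stems from its own mouse. P-values therefore measure the spread between libraries, which may be technical.

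Cyclooxygenases turn arachidonic acid, released from membranes by phospholipase A2, into prostaglandin H2, which separate synthases then convert to prostaglandin E2 (PGE2), D2 (PGD2), prostacyclin and others. Cyclooxygenase-1, from Ptgs1, is made steadily by many cell types, while cyclooxygenase-2, from Ptgs2, is an inducible enzyme whose short-lived transcript carries AU-rich elements. PGD2 attracts and activates ILC2 through the receptor CRTH2, the product of Ptgdr2 and a surface marker used to sort human ILC2. PGE2, through EP2 and EP4, and prostacyclin, through IP, restrain the cytokine output of ILC2 in human or mouse cells, and these 3 receptors couple to a rise in cyclic AMP (cAMP).

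Libraries held 2086864 to 3216937 gene counts, so a gene with no count in a library could have had up to 0.933 to 1.44 CPM (counts scaled to a library total of 1000000), a limit of 3 counts that covers counting error only. ILC2 markers were present in every library, at 5298 to 7000 CPM summed over 12 genes. Alox5 averaged 9.84 ± 3.39 CPM in Alox5 KO against 96.2 ± 32.8 CPM in WT (SD, n = 4 each). Il1rl1 averaged 172.9 ± 37.6 CPM in St2 KO against 215.5 ± 34.7 CPM in WT, and Il25 had no count in any library, so those 2 labels could not be checked from the targeted transcript. The sample codes split the libraries into 3 sets of unstated meaning: TS (replicates 1 and 2 of all genotypes), TT (replicates 3 and 4 of Alox5 KO and WT) and TY (the same 2 numbers of Il25 KO and St2 KO). In TY, Xist reached 982 to 1682 counts and Ddx3y at most 2, whereas the other 12 had at most 7 of Xist and at least 709 of Ddx3y, so TY was female and the other sets male by these transcripts. Alox5 KO replicates 1 and 2 and St2 KO replicate 1 held 1.99, 65.3 and 33.0 CPM of 6 B and plasma cell markers, against 428 to 816 CPM in the other 13 libraries.

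Ptgs2 had less transcript in St2 KO than in the other 3 genotypes, and it was the only one of the 10 genes whose difference passed the test. Because the gene is known for control at its promoter and in its 3′ untranslated region, the sequences of both are shown before its values. Ptgs2 (ENSMUSG00000032487) lies on chromosome 1 from 150100031 to 150108227 on the plus strand of GRCm38 and has 11 exons in the GENCODE transcripts. In the RefSeq promoter window, 250 bases before to 50 bases after the start site, capitals mark the C/EBP palindrome TTGCGCAA, the cAMP response element core TGACGT (here on the other strand, ACGTCA) and the E-box CACGTG, of which the last 2 overlap.
Ptgs2 promoter, GRCm38.p6, chr1:150099781-150100080, plus strand: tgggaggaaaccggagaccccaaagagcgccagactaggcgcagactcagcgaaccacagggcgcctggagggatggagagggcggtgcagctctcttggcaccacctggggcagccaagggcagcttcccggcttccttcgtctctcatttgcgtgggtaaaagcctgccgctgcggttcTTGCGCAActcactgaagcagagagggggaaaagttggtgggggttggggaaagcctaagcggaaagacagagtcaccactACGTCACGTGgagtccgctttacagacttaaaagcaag

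The palindrome began 69 bases before the RefSeq start site, at position -69, and the overlapping pair began at positions 13 and 17. These positions count from the annotated site, and where transcription begins in these cells was not tested. Over 32851 RefSeq mouse promoter windows of this length, searched on both strands, 0.183% held TTGCGCAA, 7.51% held TGACGT, 7.15% held CACGTG and 0.411% held the NF-kB motif (GGGA, any base, TTTCC). The promoter windows of the other 9 genes held none of these 4 motifs, and that of Ptgs2 did not hold the NF-kB one. Only exact matches within the windows were sought, so sites further upstream or of variant sequence would be missed. The 3′ untranslated region of transcript Ptgs2-201 spans 2445 bases and held 6 copies of the AU-rich element TATTTAT. Of 10389 tested genes with an annotated region, 0.337% held at least as many. A 30-base stretch that begins at base 12 of that region is shown with its ATTTA pentamers in capitals, some of which overlap.
Ptgs2 AU-rich stretch, GRCm38, chr1:150105794-150105823, plus strand: ccatATTTATTTATTTAtgtgaagaATTTA

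This stretch held 4 of the 14 ATTTA pentamers of the region. Ptger4 held 2 TATTTAT elements, Ptger2, Hpgd and Ptgdr2 held 1 each, and Ptgs1, Ptges3, Hpgds, Ptgir and Ptgdr held none.

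Ptgs2 transcript stood at 64.9, 86.2, 93.2 and 184 CPM in Alox5 KO replicates 1 to 4 and at 135, 176, 154 and 39.9 CPM in Il25 KO replicates 1 to 4. It stood at 9.78, 12.4, 5.11 and 2.75 CPM in St2 KO replicates 1 to 4, from 29, 40, 14 and 8 counts, against 138, 102, 109 and 159 CPM in WT replicates 1 to 4, from 358, 264, 290 and 388 counts. Every St2 KO library lay below every library of the other 3 genotypes, a separation whose share among all tested genes was not computed. The 12 libraries of those genotypes overlapped one another, and Il25 KO replicate 4 was the lowest of them. In bulk RNA, fewer Ptgs2-expressing cells and less Ptgs2 RNA per cell cannot be told apart.

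**Figure D1:**
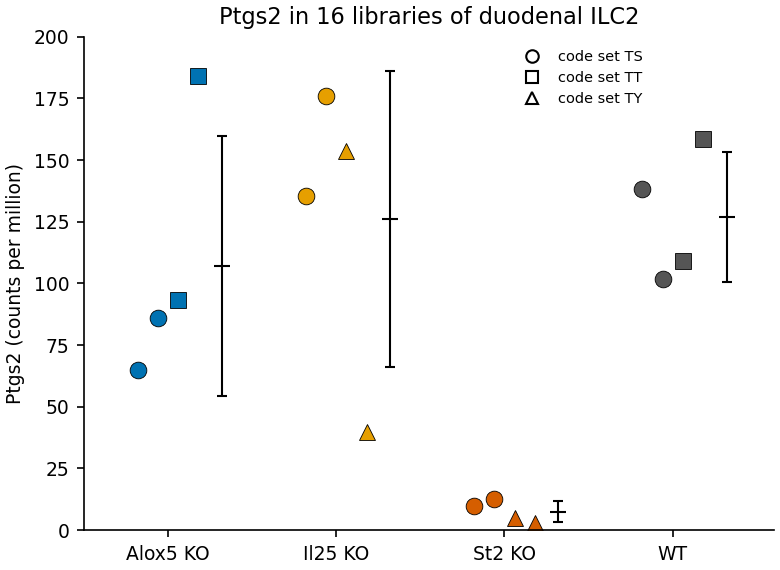
Ptgs2 in CPM (y axis, linear from 0) for each library, by genotype (x axis); point shape gives the sample-code set, and the dash with bars gives the mean ± SD of 4 libraries. The 4 St2 KO points lie at 2.75 to 12.4, below all 12 others, which lie at 39.9 to 184.

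The model of all 16 libraries, with genotype and sample-code set as terms, estimated Ptgs2 at 11.2-fold lower in St2 KO than in WT (95% interval 4.86 to 25.8; log2 fold change -3.48 ± 0.57 SE; edgeR quasi-likelihood test, Benjamini-Hochberg adjusted p = 0.00788). That made Ptgs2 1 of the 35 called genes of this comparison, out of 11742 tested (0.298%). Ptgs2 was 17.0-fold higher in Il25 KO than in St2 KO (95% interval 8.28 to 35.1; log2 fold change 4.09 ± 0.49; edgeR adjusted p = 0.000168), where 1.24% of tested genes were called. It was 9.26-fold higher in Alox5 KO than in St2 KO (95% interval 3.90 to 22.0; log2 fold change 3.21 ± 0.59; edgeR adjusted p = 0.0158), where 0.485% were called. These 3 comparisons share the St2 KO libraries. Il25 KO and St2 KO both carried the Arg1 reporter. In St2 KO against WT and against Alox5 KO, the St2 and Arg1 reporter alleles differ together and cannot be told apart. The test of any difference among the 4 genotypes also called Ptgs2 (F = 23.5, edgeR adjusted p = 0.00109), as it did 1.17% of genes.

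Ptgs2 did not pass in the 3 comparisons among the other genotypes. Alox5 KO averaged 107 ± 52.7 CPM, Il25 KO 126 ± 59.9 CPM and WT 127 ± 26.3 CPM (SD, n = 4 each). The log2 fold change was -0.27 ± 0.32 in Alox5 KO against WT (95% interval -0.94 to 0.40; edgeR adjusted p = 0.874), a comparison with 0.102% of genes called. It was 0.61 ± 0.39 in Il25 KO against WT (95% interval -0.21 to 1.42; edgeR adjusted p = 0.693), with 0.417% called, and -0.88 ± 0.40 in Alox5 KO against Il25 KO (95% interval -1.73 to -0.04; edgeR adjusted p = 0.506), with 0.392% called. WT and Il25 KO share set TS only, and the Il25 KO value depended on how the sets entered: it was 0.03 without the set term and 0.41 with set TS alone.

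The direction was the same within each sample-code set that held the groups. Within TS, the log2 fold change of Ptgs2 was -3.44 ± 0.66 in St2 KO against WT (edgeR adjusted p = 0.0565, 0.255% of genes called). It was 3.85 ± 0.63 in Il25 KO against St2 KO (edgeR adjusted p = 0.0123, 0.349% called) and 2.78 ± 0.72 in Alox5 KO against St2 KO (edgeR adjusted p = 0.203, 0.281% called). These values use the spread of all 16 libraries; a fit of the 8 TS libraries alone gave the same 3 log2 fold changes and called all 3 (edgeR adjusted p = 0.00140, 0.000543 and 0.0155). Within TY it was 4.63 ± 0.88 in Il25 KO against St2 KO (edgeR adjusted p = 0.0417, 0.375% called). The 2 within-set values of Il25 KO against St2 KO, TY minus TS, differed by 0.78 ± 1.48 (edgeR unadjusted p = 0.608). WT and St2 KO met only in TS, so replicates 3 and 4 of both enter that comparison through the set term.

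Summed markers of plasma cells and of ILC2 differed between St2 KO and WT, and their part in the Ptgs2 result was not tested. Levels of B and plasma cell markers and of Ptgs2 in the single Alox5 KO and St2 KO libraries were as follows. Alox5 KO replicates 1 and 2 had 1.99 and 65.3 CPM of these markers and 64.9 and 86.2 CPM of Ptgs2. Alox5 KO replicates 3 and 4 had 501 and 711 CPM of them and 93.2 and 184 CPM of Ptgs2. St2 KO replicates 2 to 4 had 428, 539 and 455 CPM of them and 12.4, 5.11 and 2.75 CPM of Ptgs2. St2 KO replicate 1 was low in both, at 33.0 and 9.78 CPM. The summed B and plasma cell markers reached 33.0 to 539 CPM in St2 KO against 643 to 816 CPM in WT, with no overlap. Alox5 KO (1.99 to 711 CPM) and Il25 KO (460 to 759 CPM) overlapped St2 KO. The summed ILC2 markers were 5298 to 5931 CPM in St2 KO against 6127 to 6371 CPM in WT, also with no overlap. Single ILC2 markers went in both directions. By TMM-scaled mean, Id2 (434 against 616 CPM) and Areg (72.5 against 262 CPM) were lower in St2 KO than in WT. So were Klrg1, Il17rb, Il1rl1, Nmur1, Il13 and Il5. Gata3 (618 against 590), Rora (1251 against 1206) and Kit (210 against 180) were higher, and Il7r was at 1158 against 1162. With the 3 libraries poor in plasma cell RNA left out, the log2 fold change of Ptgs2 in St2 KO against WT was -3.67 (edgeR adjusted p = 0.164). That in Alox5 KO against St2 KO was 3.73 (edgeR adjusted p = 0.465), and that in Il25 KO against St2 KO was 4.10 and still called (edgeR). Alox5 KO then remained in set TT only, so its value against St2 KO runs through WT and the set term. Macrophage and dendritic cell markers, from cell types that can express Ptgs2, summed over 8 genes to 1.99 to 9.58 CPM in Alox5 KO, 1.08 to 39.5 CPM in Il25 KO, 0.311 to 5.84 CPM in St2 KO and 1.63 to 4.14 CPM in WT. The 39.5 CPM were those of Il25 KO replicate 3, and the part of these markers in the Il25 KO level of Ptgs2 was not tested. Leaving out single libraries ended the call of St2 KO against WT in 3 cases: St2 KO replicate 1 (edgeR adjusted p = 0.0697), St2 KO replicate 2 (0.0585) and WT replicate 1 (0.0565), with log2 fold changes of -3.52, -3.73 and -3.22. The call of Alox5 KO against St2 KO ended without Alox5 KO replicate 2 or St2 KO replicate 1, 2 or 3 (edgeR adjusted p 0.0535 to 0.0962), with log2 fold changes of 3.19 to 3.45.

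The 5 genes whose log2 CPM followed Ptgs2 most closely over the 16 libraries were Ier5 (Pearson r = 0.944, Spearman rho = 0.788), Nfkbia (0.944 and 0.791), Gadd45b (0.938 and 0.841), Gem (0.936 and 0.718) and Nfkbiz (0.929 and 0.741). Nfkbia encodes the inhibitor of NF-kB alpha, Nfkbiz a related nuclear regulator, Gadd45b a stress-induced signalling protein, Gem a small GTP-binding protein and Ier5 an immediate-early response protein. The points share their libraries, and the St2 KO libraries stood apart for Ptgs2. Over the other 12 libraries r, on log2 of CPM plus 1, was 0.50 for Ier5, 0.57 for Nfkbia, 0.59 for Gadd45b, 0.49 for Gem and 0.36 for Nfkbiz. Since the 5 genes were chosen for likeness to a gene that is low in St2 KO, their own difference there follows from the choice and is given without a test. In St2 KO against WT the fitted log2 fold changes were -1.28 for Ier5, -1.23 for Nfkbia, -1.38 for Gadd45b, -0.72 for Gem and -0.95 for Nfkbiz, beside -3.48 for Ptgs2. Among the 3 with a RefSeq promoter window (Ier5, Nfkbia and Gadd45b), Nfkbia held the NF-kB motif and Gadd45b the E-box.

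**Figure D2:**
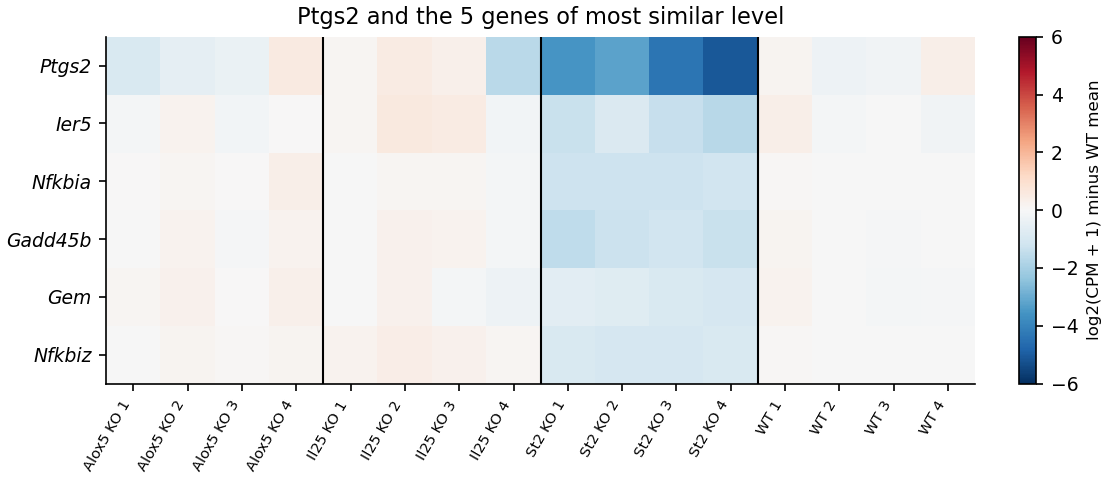
Colour gives log2(CPM + 1) minus the mean of the 4 WT libraries for Ptgs2 and the 5 genes closest to it (rows) in each library (columns, grouped by genotype; blue is lower than WT). The 4 St2 KO columns are blue in all 6 rows and deepest for Ptgs2.

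The other cyclooxygenase gene, Ptgs1 (chromosome 2, 36230426 to 36252272), was close to the detection limit, with 76 counts in all and none in 7 of the 16 libraries. It had 25, 0, 6 and 18 counts in Alox5 KO replicates 1 to 4 (9.95, 0, 2.38 and 8.63 CPM). Il25 KO libraries had 0, 7, 0 and 7 counts and St2 KO libraries 1, 5, 1 and 0, against 0, 0, 6 and 0 in WT. Alox5 KO thus held 49 of the 76 counts, and its second library held none, so the 4 libraries spanned the values of the other genotypes. Ptgs1 did not pass the expression filter. In the edgeR fit without the filter its log2 fold change was 3.03 ± 1.09 in Alox5 KO against WT (adjusted p = 0.894).

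The downstream synthases were expressed at steady levels. Hpgds, the haematopoietic PGD2 synthase, averaged 120.2 ± 14.8 CPM in Alox5 KO, 107 ± 11.7 CPM in Il25 KO, 104 ± 7.42 CPM in St2 KO and 104 ± 28.5 CPM in WT (SD, n = 4 each). Ptges3, which encodes the cytosolic PGE2 synthase also known as the HSP90 co-chaperone p23, averaged 53.6 ± 5.92, 49.4 ± 10.3, 48.4 ± 8.02 and 50.2 ± 3.42 CPM in Alox5 KO, Il25 KO, St2 KO and WT. The genotypes overlapped for both genes. Hpgds varied over the 16 libraries with a coefficient of variation of 15.7% and Ptges3 with one of 13.7%, against a median of 23.6% over the 11742 tested genes and 68.9% for Ptgs2. None of the 6 comparisons called either gene (edgeR adjusted p 0.601 to 0.985 for Hpgds and 0.723 to 0.981 for Ptges3). The 95% intervals of all 6 log2 fold changes lay within -0.47 to 0.69 for Hpgds and within -0.56 to 0.66 for Ptges3, so differences of up to 1.62-fold and 1.58-fold remain possible. Ptges3 has a processed pseudogene in the table, Ptges3-ps, with 28 counts, and reads of near-identical copies may be split between them.

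Hpgds came closest to a set-dependent difference. Within TT its log2 fold change in Alox5 KO against WT was 0.63 ± 0.21 (edgeR unadjusted p = 0.00809, adjusted p = 0.708), and within TS it was -0.15 ± 0.20. The difference between the sets, TT minus TS, was 0.79 ± 0.29 (edgeR unadjusted p = 0.0153), which did not survive adjustment. No gene of 11742 passed that interaction test in edgeR after adjustment, and 474 had an unadjusted p under 0.05.

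Hpgd (chromosome 8, 56294585 to 56321043), the dehydrogenase that inactivates prostaglandins, was detected in 1 library. Il25 KO replicate 1 held all 5 of its counts (1.80 CPM). The same library had the highest sum of 4 epithelial markers, 162.5 CPM, against 7.56 to 48.2 CPM in the other 15 libraries, and whether the counts came with epithelial RNA was not tested. Over all 4 libraries of a genotype, a count of 0 allows up to 0.309 CPM in Alox5 KO, 0.254 CPM in St2 KO and 0.292 CPM in WT.

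**Figure D3:**
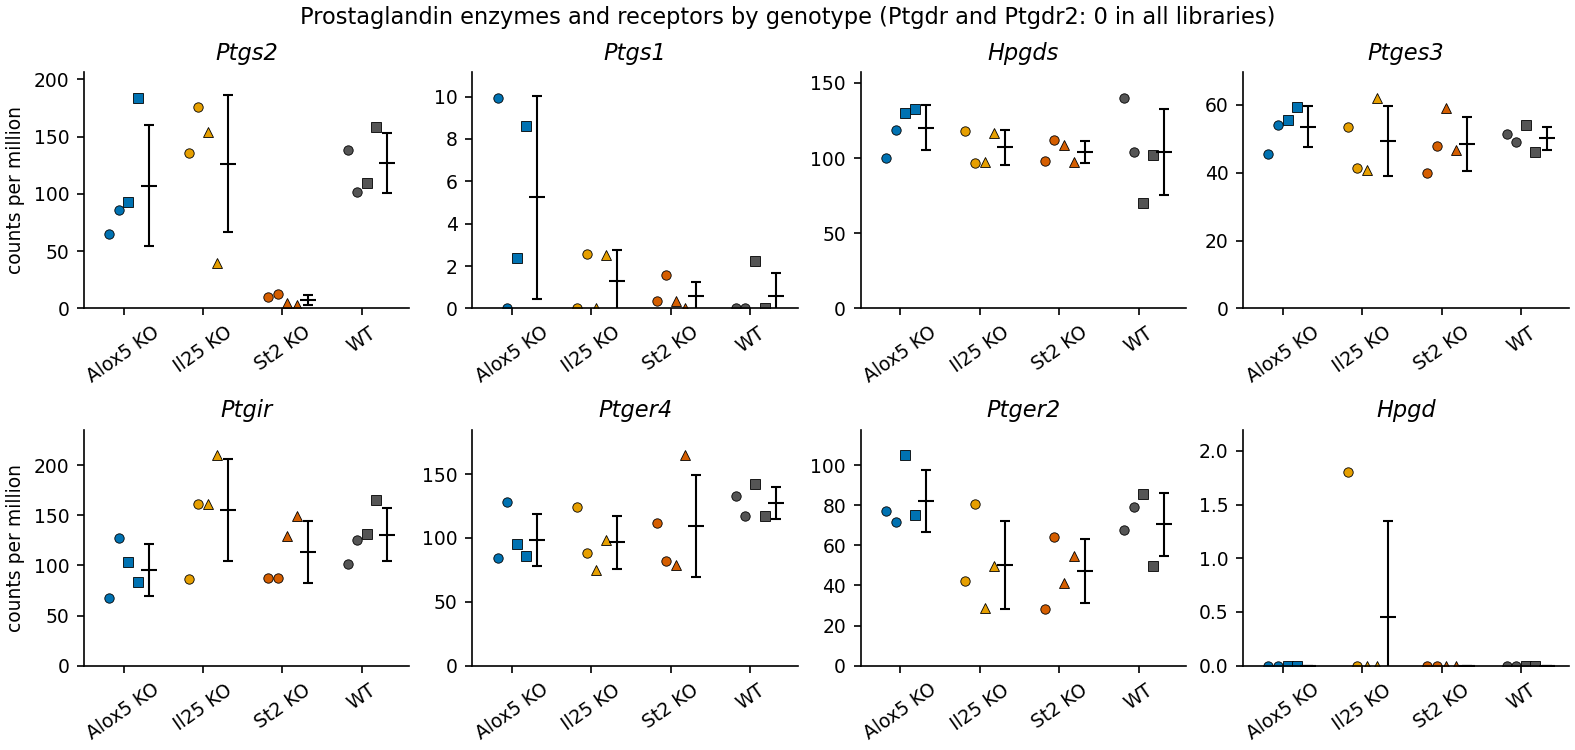
CPM (y axes, linear from 0) of the 8 detected genes by genotype (x axes), 1 point per library with the set shapes circle TS, square TT and triangle TY; dashes with bars give the mean ± SD of 4 libraries, cut at 0. St2 KO stands apart for Ptgs2 at 2.75 to 12.4 CPM, while all genotypes overlap for Hpgds, Ptges3, Ptgir and Ptger4, and for Ptger2 all but Alox5 KO (71.5 to 105.1 CPM) and St2 KO (28.3 to 64.3 CPM) do.

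Among the receptors, the prostacyclin receptor IP and the PGE2 receptors EP4 and EP2 had transcript in every library. Ptgir (chromosome 7, 16906490 to 16910905) had 67.3, 127, 104 and 83.4 CPM in Alox5 KO replicates 1 to 4 and 86.8, 162, 162 and 211 CPM in Il25 KO. It had 87.7, 87.4, 129.7 and 149.7 CPM in St2 KO and 101, 125, 131 and 165 CPM in WT. Il25 KO held the highest library and Alox5 KO the lowest, and all genotypes overlapped. The largest contrast was Il25 KO against St2 KO, with a log2 fold change of 0.50 ± 0.19 (edgeR unadjusted p = 0.0169, adjusted p = 0.291). The contrasts with WT were -0.42 ± 0.21 in Alox5 KO, 0.04 ± 0.24 in Il25 KO and -0.46 ± 0.25 in St2 KO, and edgeR called none of them.

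Ptger4 (chromosome 15, 5206661 to 5244187), for EP4, averaged 98.5 ± 20.4 CPM in Alox5 KO, 96.5 ± 21.03 CPM in Il25 KO, 109.5 ± 40.0 CPM in St2 KO and 127.5 ± 12.4 CPM in WT (SD, n = 4 each). The log2 fold changes against WT were -0.36 ± 0.21, -0.43 ± 0.26 and -0.30 ± 0.26 in Alox5 KO, Il25 KO and St2 KO, none of them called by edgeR. All 3 used the same WT libraries, so their shared sign is not independent. Without strand information, reads in the 1097 of its 6648 exonic bases that overlap Ttc33 or Gm15937 cannot be assigned with certainty.

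Ptger2 (chromosome 14, 44988195 to 45003820), for EP2, averaged 82.3 ± 15.4 CPM in Alox5 KO, 50.2 ± 21.8 CPM in Il25 KO, 47.2 ± 15.7 CPM in St2 KO and 70.4 ± 15.8 CPM in WT (SD, n = 4 each). Every Alox5 KO library, at 71.5 to 105.1 CPM, lay above every St2 KO library, at 28.3 to 64.3 CPM. How many of all tested genes separate in this way was not counted, so the separation alone is no result. The log2 fold change in Alox5 KO against St2 KO was 0.64 ± 0.32 and did not pass (edgeR adjusted p = 0.459; 95% interval -0.04 to 1.31). Ptger2 lies 9.93 Mb from Il25, and its log2 fold change in Il25 KO against WT was -0.27 ± 0.32, not called by edgeR. Over the 6 comparisons the 95% intervals allow differences of up to 1.97-fold for Ptgir, 1.95-fold for Ptger4 and 2.48-fold for Ptger2.

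**Figure D4:**
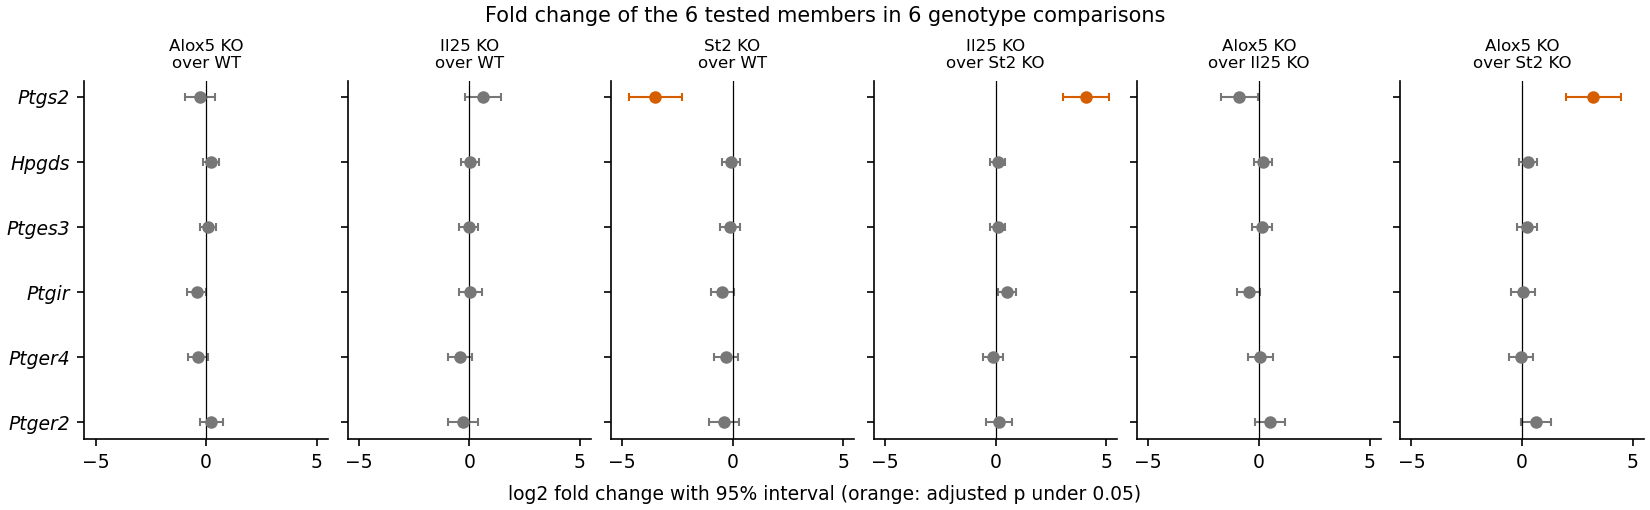
Log2 fold change (x axes) with its 95% interval for the 6 genes that passed the expression filter (rows) in the 6 genotype comparisons (panels, the first-named genotype over the second); orange marks an edgeR adjusted p under 0.05. Ptgs2 is orange in the 3 panels with St2 KO, at -3.48, 4.09 and 3.21, and the intervals of the other 5 genes stay within 2.48-fold in either direction.

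Both PGD2 receptors were undetected. Ptgdr, for DP1, and Ptgdr2, for CRTH2, had no count in any of the 16 libraries, which allows up to 0.0705 CPM over all libraries together. The cells thus had transcript of the PGD2 synthase Hpgds in all 16 libraries and no detectable transcript of either PGD2 receptor, although CRTH2 is known as a receptor of ILC2. Both genes were listed in the table, and the deposited counting could lose reads where another gene overlaps: Ccdc86 covers 1031 of the 2644 exonic bases of Ptgdr2, and Gm16976 covers 705 of the 3187 of Ptgdr. The remaining exonic bases of each overlap no other annotated gene and had no count either.

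Per length of exon, Ptgir had the highest level of the 10 genes, at 37.1 ± 11.6 CPM per kb (SD over 16 libraries), followed by Ptges3 at 22.7 ± 3.10 and Ptgs2 at 20.1 ± 13.8. Hpgds followed at 16.9 ± 2.67, Ptger4 at 16.2 ± 3.93 and Ptger2 at 12.04 ± 4.15 CPM per kb, and Ptgs1 at 0.492 ± 0.791. Ptgir exceeded Ptges3 in 14 of 16 libraries, and Ptger2 exceeded Ptgs1 in 16 of 16. The neighbours between them changed places from library to library: Ptges3 exceeded Ptgs2 in 9, Ptgs2 exceeded Hpgds in 10, Hpgds exceeded Ptger4 in 9 and Ptger4 exceeded Ptger2 in 11 of 16, so their order was not resolved. In St2 KO, Ptgs2 stood at 1.64 ± 0.958 CPM per kb, below all 5 of the other tested genes, against 27.7 ± 5.74 in WT, where only Ptgir averaged higher.

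**Figure D5:**
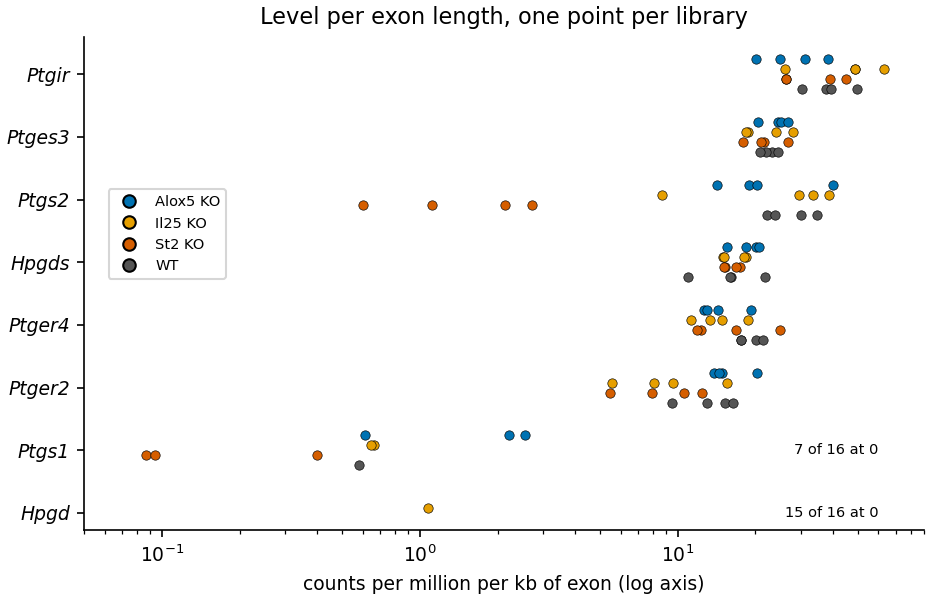
CPM per kb of exon (x axis, log scale) for each detected gene (rows, ordered by mean level), 1 point per library and coloured by genotype; libraries at 0 are counted at the right. Ptgir lies highest, and Ptgs2 in St2 KO (0.601 to 2.71) lies below the Ptgs2 points of the other genotypes.

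Other genes of the pathway were read from 5 lists, chosen with earlier results of these data known, to see what moved beside Ptgs2. The first list held other prostanoid enzymes, transporters and receptors. Of its 21 genes, 20 were found and 9 were tested, none was called in any comparison of 2 genotypes, and the PGD2 synthase Ptgds and the PGF receptor Ptgfr had no count in any library. The microsomal PGE2 synthase Ptges averaged 8.29 ± 6.50 CPM in Alox5 KO, 2.99 ± 2.98 in Il25 KO, 4.43 ± 2.67 in St2 KO and 1.65 ± 2.53 in WT (SD, n = 4 each), with overlapping genotypes. The constitutive synthase Ptges2 had a mean of 43.1 CPM over the 16 libraries. The prostaglandin exporter Abcc4 averaged 6.27 ± 2.08 CPM in Alox5 KO, 11.2 ± 6.995 in Il25 KO, 25.2 ± 12.3 in St2 KO and 21.1 ± 9.21 in WT (SD, n = 4 each). Every Alox5 KO library (3.83 to 8.73 CPM) lay below every St2 KO library (14.6 to 43.0 CPM) and every WT library (10.4 to 32.7 CPM). The share of all tested genes with such a separation was not computed. The log2 fold change was -1.70 ± 0.53 in Alox5 KO against WT (edgeR unadjusted p = 0.00514, adjusted p = 0.450) and -2.07 ± 0.62 in Alox5 KO against St2 KO (edgeR unadjusted p = 0.00365, adjusted p = 0.208), so neither passed. Of 27 tested genes of receptor-coupled cAMP signalling (G proteins, adenylyl cyclases, protein kinase A subunits, phosphodiesterases) edgeR called none in any of the 6 comparisons. Their median log2 fold change in St2 KO against WT was 0.05, beside 0.01 over all tested genes.

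Release of arachidonate gave 1 call. Of 11 tested genes of that list, Pla2g4a, the cytosolic phospholipase A2 that frees arachidonate from membranes, differed among the 4 genotypes (edgeR test of any difference, adjusted p = 0.0117), a test that called 1.17% of all genes. It had 34.6, 15.8, 27.8 and 21.1 CPM in Alox5 KO, and the Il25 KO libraries had 4.32, 0.734, 2.04 and 6.11 CPM. The St2 KO libraries had 4.38, 3.73, 3.29 and 8.95 CPM, against 0.386, 2.70, 10.9 and 6.13 CPM in WT. All 4 Alox5 KO libraries lay above the other 12, and how many tested genes separate in this way was not counted. No single comparison of 2 genotypes passed: the log2 fold change was 2.32 ± 0.46 in Alox5 KO against WT (edgeR adjusted p = 0.0569), 3.02 ± 0.67 in Alox5 KO against Il25 KO (edgeR adjusted p = 0.0541) and 2.47 ± 0.61 in Alox5 KO against St2 KO (edgeR adjusted p = 0.1099). DESeq2 gave adjusted p-values of 0.00936, 0.0428 and 0.165 for these 3, and the legacy mode of edgeR gave 0.243, 0.211 and 0.342. Without the set term edgeR called all 3 (adjusted p = 0.0496, 0.00484 and 0.00756), with a log2 fold change against WT of 2.30. With terms for replicate number beside the set term, the comparison with WT also passed (edgeR adjusted p = 0.0446). Whether each comparison passed thus depended on the terms of the model. Leaving out single libraries gave edgeR adjusted p-values of 0.0256 to 0.278 against WT, under 0.05 without Il25 KO replicate 1 or WT replicate 3. Leaving out the 3 libraries poor in plasma cell RNA, which include Alox5 KO replicates 1 and 2, the log2 fold change was 1.54 against WT, 0.82 against Il25 KO and 0.31 against St2 KO (edgeR adjusted p = 0.744, 0.951 and 0.970). That leaves Alox5 KO in set TT only, which it shares with WT alone. Its values against Il25 KO and St2 KO then run through WT and the set term. The Alox5 KO libraries that stayed in had 27.8 and 21.1 CPM. Pla2g4a lies on chromosome 1 at 149829618 to 149961290, 138.7 kb from Ptgs2, and Ptgs2 was not called in Alox5 KO against WT.

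Genes that cAMP and other acute signals induce, and regulators of Ptgs2 itself, held the other calls. Of 13 cAMP-responsive genes edgeR called 2 lower in St2 KO than in WT, Nr4a1 (log2 fold change -0.86 ± 0.12) and Fosb (-1.04 ± 0.18), and the list's median was -0.16 beside 0.01 over all genes. In Il25 KO against St2 KO it called 3 higher, Fosb (1.66 ± 0.15), Nr4a1 (0.92 ± 0.10) and Fos (0.41 ± 0.08), with a median of 0.41 beside -0.01. Nr4a1 is an orphan nuclear receptor, and Fosb and Fos are AP-1 subunits. In Alox5 KO against St2 KO, Nr4a1 and Fosb were again higher by edgeR. Of all tested genes, 0.187% were called lower in St2 KO than in WT, 0.852% higher in Il25 KO than in St2 KO and 0.307% higher in Alox5 KO than in St2 KO.

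Of 19 regulators of Ptgs2 transcription or transcript stability, edgeR called Zfp36 (-2.33 ± 0.16) and Nfkbia (-1.23 ± 0.11) lower in St2 KO than in WT. Nfkbia is also among the genes chosen above for likeness to Ptgs2, so its calls in comparisons with St2 KO are no separate evidence. Zfp36 encodes tristetraprolin, which binds AU-rich elements such as those of Ptgs2 and promotes decay of the transcript. It had 68.8, 129.0, 94.6 and 114 CPM in St2 KO replicates 1 to 4, against 550.4, 505, 460.3 and 545 CPM in WT, with no overlap. The share of tested genes without overlap between these genotypes was not computed. The transcripts of Ptgs2 and of this decay factor were therefore both lower in St2 KO. In Il25 KO against St2 KO 6 regulators were called higher by edgeR: Egr1 (3.84 ± 0.42), Zfp36 (2.41 ± 0.13), Jun (1.99 ± 0.22), Zc3h12a (1.82 ± 0.26), Nfkbia (1.29 ± 0.09) and Nfkb1 (0.66 ± 0.13). Egr1 and Jun are immediate-early transcription factors, Zc3h12a encodes the RNA-cleaving enzyme Regnase-1 and Nfkb1 an NF-kB subunit. In Alox5 KO against St2 KO 4 were higher by edgeR, Egr1, Zfp36, Nfkbia and Jun. The C/EBP factor Cebpb, whose kind of site the Ptgs2 promoter held, was not called in any comparison (217 CPM on average over the 16 libraries), nor were the RNA-binding proteins Elavl1 and Celf2.

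The non-coding neighbour Ptgs2os, which starts beside Ptgs2 on the opposite strand without overlapping its exons, had few reads: 13 counts over the 4 Alox5 KO libraries, 3 in Il25 KO, 0 in St2 KO and 16 in WT. It was too low for the test.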

How the data were processed

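Raw counts of reads per gene, in 1 table of all libraries, are what the authors deposited. Per the submitters' processing notes the tools were FastQC 0.11.3, Picard 1.134, STAR 2.4.2a and HTSeq 0.4.1, with build GRCm38; their settings and any duplicate removal are not given in the sources used here. Per the labels' protocols, ILC2 were sorted after Liberase TM digestion and a Percoll step (gate not given in the sources used here), and Nextera XT libraries, which keep no strand, were made. From 53471 rows, 6 with a repeated identifier were dropped. CPM are counts divided by the column total, times 1000000. Exon lengths came from GENCODE M21 and promoters from RefSeq (10 of 10 genes matched).

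Counts were tested with edgeR 4.0.16 (TMM scaling, default expression filter over the genotypes, robust quasi-likelihood F test, genotype plus sample-code set, 10 residual degrees of freedom, 11742 genes), with Benjamini-Hochberg adjustment over all genes and a threshold of 0.05. The filter kept 6 of the 10 genes: Ptgs2, Hpgds, Ptges3, Ptgir, Ptger4 and Ptger2. The standard error is the log2 fold change divided by the square root of F. The script was tested on simulated data. The genes and lists were chosen with earlier results of these data known. Named beside them are called list genes (up to 6 per list and comparison), the 5 genes with the highest Pearson correlation with Ptgs2 (log2 CPM, prior count 2) and cell type markers. The alternatives were other scaling, filter, tool (DESeq2 1.42.0) and model terms, set TS alone, each library left out, and, added with the data known, leaving out 3 libraries.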

Additional observations from a re-analysis of the deposited data

Results flagged for a closer look

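In 3 of 29 groups of 4 libraries with a count, 1 library stood apart from the other 3 by more than Dixon's 95% critical value allows; chance flags about 1 group in 20. Ptgs1 had 2.26 CPM (6 counts) in WT replicate 3 and none in the other WT libraries. Hpgd had 1.80 CPM (5 counts) in Il25 KO replicate 1 and none in the other Il25 KO libraries. Ptger2 had 105.1 CPM in Alox5 KO replicate 3, and the next highest Alox5 KO library had 77.2 CPM. In the first 2 cases the other 3 libraries were at 0, where any count meets the rule, so that rate does not apply to them; the Ptger2 value only just met it. No difference between sample-code sets passed for any of the 6 tested genes in edgeR; over all genes the 2 interaction tests called 0, with 572 (Il25 KO against St2 KO) and 474 (Alox5 KO against WT) genes at an unadjusted p under 0.05.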

How the results depend on the processing

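Of 936 recomputed log2 fold changes of the 6 tested genes, 882 kept their direction and side of the threshold, 10 lost a call of Ptgs2 and 44 changed sign; the cause was not tested. The sign changes were all of uncalled values, at most 0.34 in size. The call of Ptgs2 in Il25 KO against St2 KO held under every alternative. Leaving out 1 library gave 0 to 1 called genes among the 10 in St2 KO against WT (0 without WT replicate 1, St2 KO replicate 1 or 2) and 0 to 1 in Alox5 KO against St2 KO (0 without Alox5 KO replicate 2 or St2 KO replicate 1, 2 or 3). Without the 3 libraries poor in plasma cell RNA both counts were 0, with Alox5 KO then in set TT only. Without the expression filter the count in Alox5 KO against St2 KO was 0 (edgeR adjusted p = 0.0574 for Ptgs2). Called genes of the 5 lists, 0 in Alox5 KO against WT, became 1, Pla2g4a, with DESeq2, without the set term and with the replicate block (0 to 1 leaving out 1 library). In Il25 KO against WT, 0 became 2 without the set term (0 to 1). In Alox5 KO against Il25 KO, 0 became 1 with DESeq2 and without the set term (0 to 1). In Il25 KO against St2 KO, 9 became 5 in TS alone; in Alox5 KO against St2 KO, 6 became 3 without the 3 libraries; for any difference TS alone gave 4.

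The values of changed sign were, in TS alone, -0.00707 (Ptges3) and -0.15 (Hpgds) in Alox5 KO against WT, -0.16 (Hpgds, Il25 KO against WT), 0.19 (Ptger4, Il25 KO against St2 KO), -0.0206 (Ptger4, Alox5 KO against Il25 KO) and 0.17 (Ptger4, Alox5 KO against St2 KO). Without the 3 libraries they were 0.0567 (Ptgs2, Alox5 KO against WT), -0.14 (Hpgds, Il25 KO against WT), -0.13 (Ptger2, Il25 KO against St2 KO), -0.11 (Ptger4, Alox5 KO against Il25 KO) and -0.27 (Ptgir, Alox5 KO against St2 KO). With only the groups compared they were -0.16 (Hpgds, Il25 KO against WT), -0.0232 (Ptger4, Alox5 KO against Il25 KO) and 0.16 (Ptger4, Alox5 KO against St2 KO), and without the set term 0.0167 (Ptges3, Il25 KO against WT) and -0.22 (Ptgir, Alox5 KO against St2 KO). Leaving out 1 library gave ranges across 0 in Il25 KO against WT for Ptges3 (-0.15 to 0.0241), Ptgir (-0.29 to 0.29) and Hpgds (-0.0568 to 0.30), in St2 KO against WT for Hpgds (-0.15 to 0.22), in Il25 KO against St2 KO for Ptger2 (-0.20 to 0.31), Ptges3 (-0.0100 to 0.20) and Ptger4 (-0.29 to 0.19), in Alox5 KO against Il25 KO for Ptger4 (-0.18 to 0.31), and in Alox5 KO against St2 KO for Ptger4 (-0.31 to 0.10) and Ptgir (-0.34 to 0.24).

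Same-numbered libraries did not deviate together in every pair, so the numbers were not taken as pairs; the fit with the replicate block gave -3.49 for Ptgs2 in St2 KO against WT and changed no call of the 10 genes. Over all genes, apart from leaving out single libraries, called counts ran from 3 to 53 in Alox5 KO against WT (12 as reported), 9 to 95 in Il25 KO against WT (49), 21 to 67 in St2 KO against WT (35), 33 to 246 in Il25 KO against St2 KO (146), 2 to 105 in Alox5 KO against Il25 KO (46), 11 to 122 in Alox5 KO against St2 KO (57) and 42 to 205 for any difference (137); the highest were with DESeq2 or without the set term. The 4 untested genes had 76 counts or fewer over 16 libraries, and whether depth, overlapping genes or absent expression set this was not tested.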
